A study of Mus musculus with 8 samples.

Results

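The cell cycle and DNA replication genes described here are 45 genes chosen by name: 18 that act in G1 or at entry into S phase, 14 of DNA replication and nucleotide supply, and 13 of G2 and mitosis. They were followed through the Affymetrix probe sets that the platform annotation assigned to 1 of these genes alone. That rule gave 107 probe sets for 44 of the 45 genes, of 34945 probe sets for 18193 genes in the whole series. No probe set was assigned to the mitotic cyclin gene Ccnb1 alone, so it has no value here. No measured value entered the rule, but the genes were chosen with earlier results of these data known. All 44 genes passed the filter on low signals, and the probe set used for each was above the signal cutoff of 291.1, the median of all signals, on all 8 arrays.

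RNA came from mouse embryonic fibroblasts (MEFs) immortalized with large T antigen and kept at 21% oxygen in complete medium, all groups alike. The 4 groups were wild type cells, FIH null cells, VHL null cells and VHL/FIH null cells, called double null below, with 2 arrays each. The null cells arose from MEFs with floxed FIH, VHL or both alleles after infection with adenovirus carrying Cre, and each null group had its own floxed line, so genotype and line of origin cannot be told apart. Whether a line is a clone is not given in the sources used here. The labels call the samples biological replicates without naming embryos or cultures, so the p-values cover no more than the variation among these arrays, which may be technical.

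Cells pass from G1 into S phase when cyclin D with Cdk4 or Cdk6, and then cyclin E with Cdk2, phosphorylate the retinoblastoma (Rb) family and free E2F factors, which drive the genes of replication. Origin licensing by Cdc6 and Cdt1 loads the Mcm helicase, and a later wave of mitotic genes, controlled by B-Myb and Foxm1 complexes, carries the cell through G2 and mitosis. Large T antigen binds Rb family proteins and p53, so that in immortalized MEFs E2F activity is less dependent on the cyclin kinases. FIH and VHL both restrain the hypoxia-inducible factors (HIF), FIH by hydroxylating an asparagine of the alpha subunits and VHL by marking them for destruction.

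The deleted genes were read first. Vhl, read as MAS5 signal, the deposited linear intensity, gave 3269 and 3319.6 in wild type, 3534 and 3426 in FIH null, 708 and 754 in VHL null and 1061 and 897 in double null cells, and Hif1an, which encodes FIH, gave 2722 and 3013 in wild type, 1676 and 1707 in FIH null, 1913 and 2153 in VHL null and 1404 and 1169 in double null cells. Vhl was low in both groups labelled as lacking it, and Hif1an was lowest in the double null cells but also fell by 0.49 (adjusted p = 0.00597) on the log2 scale in VHL null cells. Which exons Cre removed is not given in the sources used here. All arrays had the same trimmed mean signal of 2500.01, so each difference is relative to an array's mean level. Spiked hybridization controls were above wild type on the log2 scale, by 0.26 on FIH null arrays, 0.38 on VHL null arrays and 0.52 on double null arrays, and scaling to them lowers every gene by those amounts. The median of all tested genes then moved from -0.10 to -0.47 in VHL null against wild type cells. Of 10 fibroblast markers 9 were above the cutoff on all arrays. Of 6 endothelial markers none was above it on all arrays, and of 6 macrophage markers Ptprc, Adgre1 and Fcgr1 were below it on all and Cd68, Csf1r and Cd14 above it on all. The summed signal of 6 epithelial markers was 10266 to 10294 in wild type, 11298 to 11702 on FIH null arrays, 15842 to 16246 on VHL null arrays and 40091 to 47504 on those without both genes, with Krt18 and Krt19 above the cutoff on all arrays and Cdh1 and Cldn4 below it on all. The rise of that sum was that of Krt19 (rose by 2.45 (adjusted p = 1.9e-09) in double null against wild type cells), while Krt18 fell by 1.97 (adjusted p = 4.83e-06) and Epcam read 0.03 (adjusted p = 0.961). The part of these markers in the results on double null cells was not tested.

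The comparisons asked how loss of FIH, of VHL or of both changed these genes. Signals were compared on the log2 scale after adding 16, with limma fitted across 11564 tested genes and p-values adjusted over all of them, and "rose" and "fell" are used only for an adjusted p below 0.05. Over these and the interaction described last, 33 of 44 members (75%) passed in at least 1 comparison, against 70.9% of all tested genes. In FIH null against wild type cells 2 of 44 members rose and 1 fell, where 6.55% of all tested genes passed (1.96% rose and 4.59% fell). In VHL null cells 6 rose and 12 fell (all genes: 43.8%, or 15.5% rose and 28.4% fell), and in double null cells 13 rose and 10 fell (all genes: 41.4%, or 17.8% rose and 23.6% fell). These shares of members were 6.82%, 40.9% and 52.3%. The 3 comparisons share the wild type arrays. Between double null and VHL null cells 14 members rose and 2 fell (all genes: 37.7%, or 22.3% rose and 15.4% fell), and between double null and FIH null cells 9 rose and 13 fell (all genes: 45.5%, or 20.6% rose and 25% fell). In bulk RNA, fewer cycling cells and less of a transcript per cell cannot be told apart.

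Those directions depend on how arrays are scaled. With scaling to the hybridization controls 0 members were called higher and 26 lower in FIH null cells, 1 and 39 in VHL null cells, and 1 and 37 in double null cells, with wild type as the base. Of all tested genes 44.2%, 72.5% and 78.9% were then called, with 5044, 7948 and 8608 genes lower. All 12 falls in VHL null and all 10 falls in double null cells were also called with that scaling. It lowers every gene against wild type, so keeping them was no test of the falls. The E cyclin gene Ccne2 was the only rise called under both scalings in either group. Against VHL null cells that scaling gave 9 higher and 8 lower in double null cells (all genes: 37.9% called), and against FIH null cells 3 higher and 31 lower (all genes: 59.5%). With median centring, FIH null cells had 14 members higher and 1 lower, VHL null cells 9 and 10, and double null cells 17 and 5, where 12.3%, 42% and 40.2% of all genes were called. With quantile normalization VHL null cells had 3 higher and 17 lower (all genes: 39.8%).

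**Figure D1:**
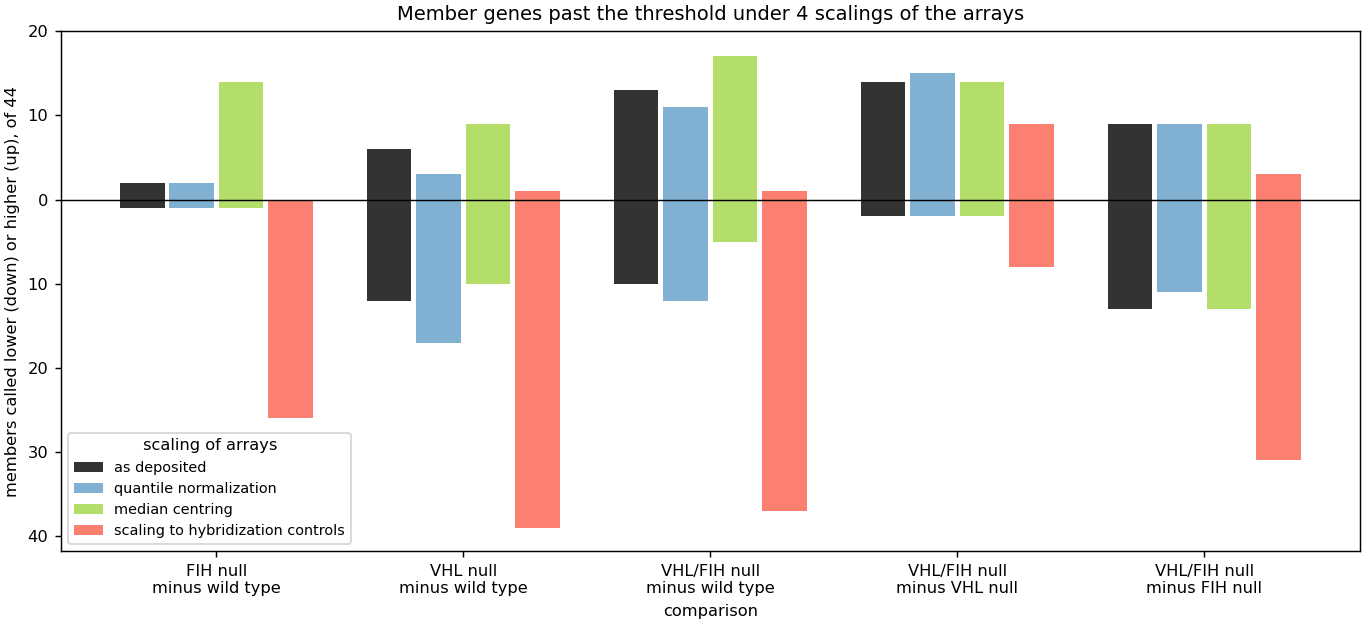
Bars count members called higher (up) or lower (down), of 44, in each of 5 comparisons under 4 scalings of the arrays. Scaling to hybridization controls turns the VHL null split of 6 higher and 12 lower into 1 and 39, and the double null split against wild type of 13 and 10 into 1 and 37.

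Sizes of change are given by role as a description. The roles were not matched for signal level with each other or with all genes, and the S members Pcna and Mcm7 were among the brightest members. In VHL null against wild type cells the median absolute log2 difference was 0.25 over 18 G1 members, 0.09 over 14 S members and 0.17 over 12 mitotic members, beside 0.27 over all tested genes. For double null cells it was 0.24, 0.12 and 0.18, beside 0.25. Changes past the threshold of at least 1.5-fold against wild type came, among members, only from G1 members: Ccne2 rose, and Ccnd1, Ccne1 and Cdkn2b fell, in VHL null cells, and Ccne2 rose and Cdk6 fell in the double null. Of all 11564 tested genes 527 rose and 1302 fell by that much in VHL null cells, and 815 and 960 in double null cells. Signed medians were -0.20 for G1, 0.04 for S and -0.15 for mitotic members in VHL null cells, beside -0.10 for all genes.

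**Figure D2:**
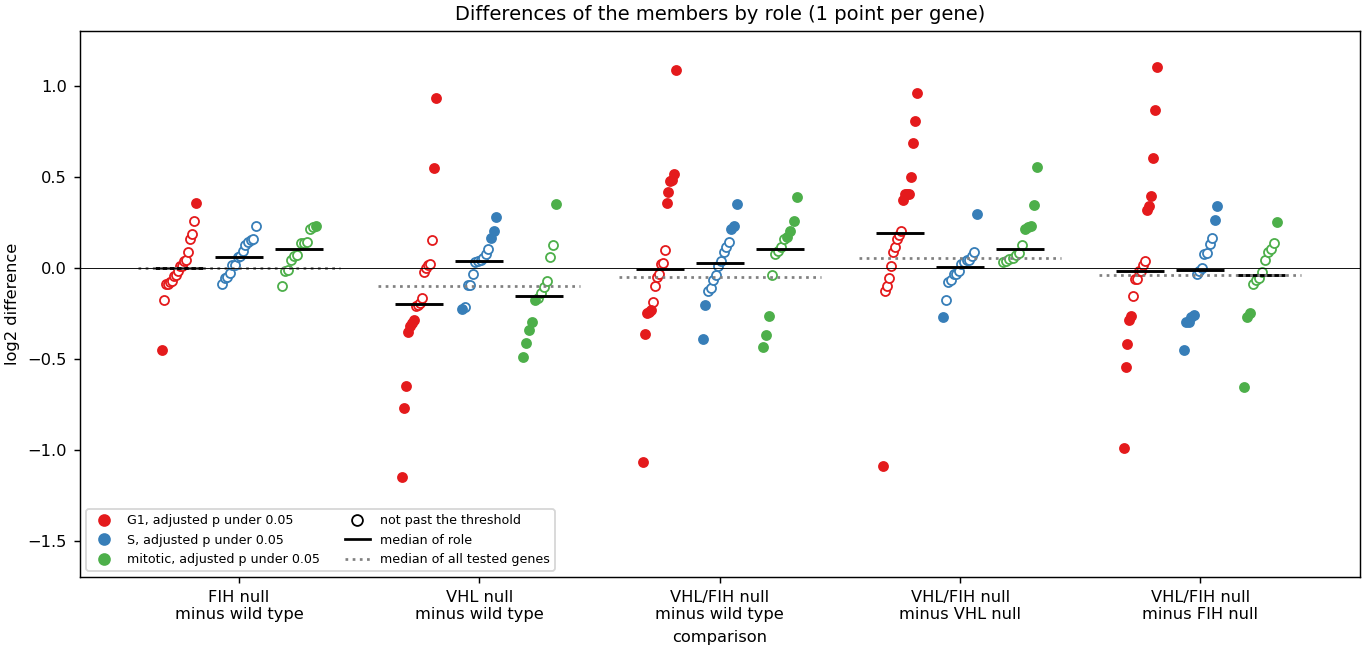
Points are log2 differences of single member genes in 5 comparisons by role (G1, S and mitotic), filled where the adjusted p was below 0.05, with the median of each role as a black line and that of all tested genes as a dotted line. G1 members span the widest range, from -1.15 to 0.93 in VHL null against wild type cells, and S members the narrowest, from -0.23 to 0.28.

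**Figure D3:**
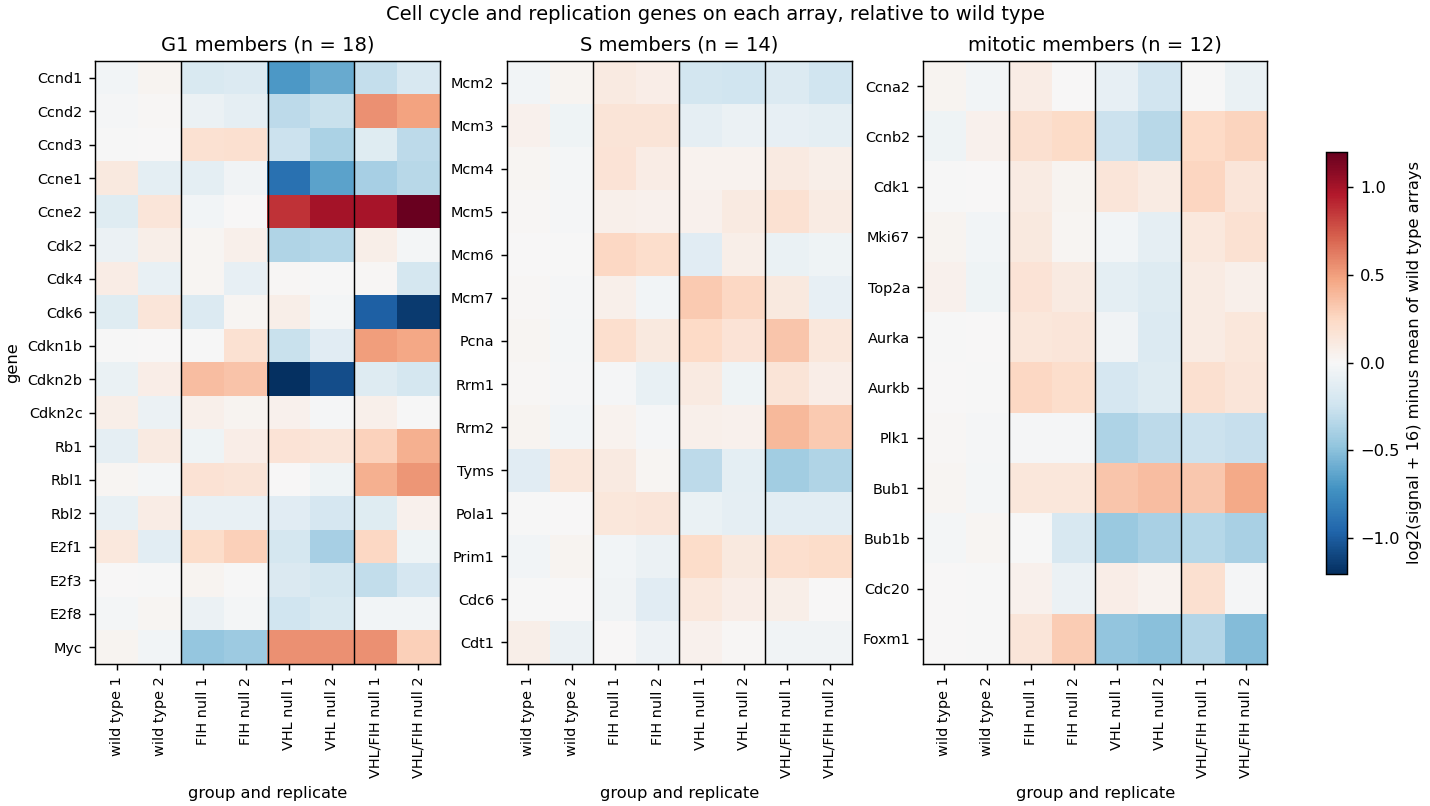
Colour gives each member's log2(signal + 16) minus the mean of both wild type arrays, with 1 row per gene, 1 column per array and 1 panel per role. Ccne2, Cdk6, Cdkn2b and Ccne1 show the deepest colours among G1 members, and most S members stay pale on all 8 arrays.

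Promoters were read for elements that had no part in the choice of genes. RefSeq's table of gene starts (GRCm38.p6), with 1 chromosome left out for members only, gave 40 promoters for 36 of the 45 genes. Ccnd1, Ccnd2, Ccne2, Rb1, Myc, Mcm4, Ccna2, Aurkb and Foxm1 had none, so the shares below do not cover them. Ccnd3, Cdkn2c, E2f3 and Mcm7 had more than 1 promoter each, and Ccnb1, which has no signal here, was counted. The 250 bases before each start were searched on both strands. The CCAAT box, searched as CCAAT, stood in 10 of 10 promoters of mitotic members, 11 of 14 of S members and 5 of 16 of G1 members, and in 33.8% of all 32851 promoters in the table. The cell cycle homology region (CHR) of mitotic genes, searched as TTTGAA, stood in 5 of 10, 1 of 14 and 4 of 16 promoters of the same roles (16% of all). The E2F site was searched in 4 forms, namely TTTGGCGC, TTTCCCGC, TTTGCCGC and TTTCGCGC, and stood in 1 of 10, 5 of 14 and 3 of 16 (1.86% of all). The core of the hypoxia response element, searched as ACGTG and as its variant GCGTG, stood in 6 of 10, 8 of 14 and 14 of 16 (38.6% of all). The table also holds promoters of noncoding genes. A match describes letters in the window and nothing more.

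The 6 promoters printed show the kinds of element beside genes that the results turn on: Cdk2 and Rbl1 of the G1 members that rose in double null against VHL null cells, Mcm6 of the helicase, Ccnb2 and Mki67 of the mitotic members that rose with them, and Plk1, which fell wherever VHL was missing. Each is 250 bases ending just before the gene start, 5′ to 3′ on the gene's strand, with CCAAT, CHR and E2F letters of either strand in capitals.
Cdk2, chr10:128705052-128705301, minus strand: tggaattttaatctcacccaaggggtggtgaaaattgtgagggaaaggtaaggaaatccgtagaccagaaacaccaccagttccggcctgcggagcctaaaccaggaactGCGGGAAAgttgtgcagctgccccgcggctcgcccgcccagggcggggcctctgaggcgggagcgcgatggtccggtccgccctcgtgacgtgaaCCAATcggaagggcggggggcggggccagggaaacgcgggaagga
Rbl1, chr2:157204535-157204784, minus strand: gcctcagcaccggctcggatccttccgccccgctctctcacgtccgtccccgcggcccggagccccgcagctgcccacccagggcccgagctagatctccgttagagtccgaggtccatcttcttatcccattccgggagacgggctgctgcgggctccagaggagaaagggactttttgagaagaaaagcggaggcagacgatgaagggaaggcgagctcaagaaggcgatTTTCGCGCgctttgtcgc
Mcm6, chr1:128359706-128359955, minus strand: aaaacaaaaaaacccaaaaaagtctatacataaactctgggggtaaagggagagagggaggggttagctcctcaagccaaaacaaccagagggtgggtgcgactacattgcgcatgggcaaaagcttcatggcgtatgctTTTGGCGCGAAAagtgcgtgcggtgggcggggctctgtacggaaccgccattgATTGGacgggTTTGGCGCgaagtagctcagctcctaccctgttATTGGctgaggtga
Ccnb2, chr9:70421555-70421804, minus strand: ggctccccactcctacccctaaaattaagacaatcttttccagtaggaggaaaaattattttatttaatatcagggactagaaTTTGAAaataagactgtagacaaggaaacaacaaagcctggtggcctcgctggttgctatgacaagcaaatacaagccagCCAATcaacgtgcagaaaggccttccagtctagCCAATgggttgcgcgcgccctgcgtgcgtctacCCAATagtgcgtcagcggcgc
Mki67, chr7:135716380-135716629, minus strand: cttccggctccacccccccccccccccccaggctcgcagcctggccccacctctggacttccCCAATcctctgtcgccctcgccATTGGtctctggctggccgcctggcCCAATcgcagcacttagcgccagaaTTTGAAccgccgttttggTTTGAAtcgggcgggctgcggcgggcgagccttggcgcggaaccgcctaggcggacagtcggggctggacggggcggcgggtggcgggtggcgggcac
Plk1, chr7:122159185-122159434, plus strand: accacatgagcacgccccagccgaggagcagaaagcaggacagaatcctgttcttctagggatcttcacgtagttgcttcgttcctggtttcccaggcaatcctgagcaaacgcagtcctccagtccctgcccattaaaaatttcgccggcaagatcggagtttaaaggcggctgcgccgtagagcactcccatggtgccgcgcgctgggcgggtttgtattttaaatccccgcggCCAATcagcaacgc
Ccnb2 carries 3 CCAAT boxes and 1 CHR, Mki67 3 and 2, and Plk1 a single CCAAT box 14 bases before the start. Mcm6 holds 3 E2F matches, of which those at 110 and 106 bases before the start overlap, and Rbl1 holds 1 at 18 bases.

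Among G1 genes the D cyclins, which activate Cdk4 and Cdk6, went different ways. Ccnd1 signals were 10094 and 10611 in wild type, 9090.4 and 9206 in FIH null, 6397 and 6806 in VHL null and 8499 and 9034 in double null cells. Both VHL null arrays lay below all others, and the double null arrays lay between them and wild type. Ccnd1 fell by 0.65 (SE 0.064, adjusted p = 2.15e-05) in VHL null cells and fell by 0.24 (SE 0.064, adjusted p = 0.0112) in double null cells, and between those groups it rose by 0.41 (SE 0.064, adjusted p = 0.000543). Its other 2 probe sets gave -0.36 and -0.80 in VHL null against wild type cells. Ccnd2 signals were 19870.3 and 20265 in wild type, 19164 and 18590.3 in FIH null, 16127 and 16718 in VHL null and 29394 and 28038 in double null cells. Ccnd2 was lowest in VHL null and highest in double null arrays, with no overlap of either with another group. It fell by 0.29 (SE 0.055, adjusted p = 0.00153) in VHL null cells and rose by 0.81 (SE 0.055, adjusted p = 1.12e-06) from VHL null to double null cells. Against wild type Ccnd2 rose by 0.52 (SE 0.055, adjusted p = 2.56e-05) in double null cells and read -0.01 with scaling to the hybridization controls. All 7 of its tested probe sets gave a difference above 0 between double null and VHL null cells, from 0.66 to 1.62, while in VHL null against wild type cells they ranged from -0.51 to 0.01. Ccnd3 signals were 12218 and 12313 in wild type, 13897 and 14029 in FIH null, 10258 and 9414 in VHL null and 11053 and 9884 in double null cells. FIH null arrays were highest, and VHL null and double null arrays overlapped below wild type. Ccnd3 fell by 0.32 (SE 0.069, adjusted p = 0.00332) in VHL null and fell by 0.23 (SE 0.069, adjusted p = 0.0194) in double null cells, and its dim second probe set gave 0.70 in the latter. The call of Ccnd1 ended in double null against wild type cells without wild type replicate 2 or double null replicate 1 (adjusted p = 0.0753 and 0.0577). The call of Ccnd3 ended in double null against wild type cells without wild type replicate 1 or 2 or double null replicate 2 (adjusted p from 0.069 to 0.127). At least 1 call also ended for Ccnd1 under median centring; Ccnd3 under median centring, the mean of probe sets or no variance trend.

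The E cyclins, which activate Cdk2 at the entry into S phase, moved in opposite directions. Ccne1 signals were 6306 and 5363 in wild type, 5366 and 5654 in FIH null, 3113 and 3720.1 in VHL null and 4417 and 4611 in double null cells, lowest in VHL null cells. Ccne2 signals were 7708 and 9377 in wild type, 8307 and 8514 in FIH null, 15526 and 16986 in VHL null and 16874 and 19423 in double null cells. All 4 arrays without VHL lay above all 4 arrays with it. Ccne1 fell by 0.77 (SE 0.1, adjusted p = 0.000143) in VHL null and fell by 0.36 (SE 0.1, adjusted p = 0.013) in double null cells, while Ccne2 rose by 0.93 (SE 0.095, adjusted p = 2.75e-05) and rose by 1.09 (SE 0.095, adjusted p = 5.83e-06), the largest rise of any member against wild type. With scaling to hybridization controls Ccne2 was still higher, by 0.56 (adjusted p = 0.000351) and 0.57 (adjusted p = 0.000225). From VHL null to double null cells Ccne1 rose by 0.41 (adjusted p = 0.00845), and 0.26 (adjusted p = 0.0593) with that scaling. Ccne1 was read by an _x_at probe set. Without _s_at and _x_at probe sets it gave -0.23 (adjusted p = 0.102) in double null against wild type cells. From VHL null to double null cells it then gave 0.17 (adjusted p = 0.215). Its VHL null fall was called under all 20 alternatives, with values from -1.15 to -0.40. FIH loss alone left Ccne2 at a difference of -0.02 (adjusted p = 0.949), and between double null and VHL null cells it was 0.16 (adjusted p = 0.224). Cdk2, their kinase partner, gave 11058 and 12220.0 in wild type, 11806 and 12088 in FIH null, 9023 and 9188 in VHL null and 12190.3 and 11445 in double null cells. Only the VHL null arrays stood apart, below the rest. Cdk2 fell by 0.35 (SE 0.065, adjusted p = 0.00138) in VHL null cells and rose by 0.38 (SE 0.065, adjusted p = 0.00107) from VHL null to double null cells, where its level came within 0.02 of wild type on the log2 scale. The calls of Ccne1 ended in double null against wild type cells without wild type replicate 1 or double null replicate 1 (adjusted p = 0.124 and 0.06), in double null against VHL null cells without VHL null replicate 1 (adjusted p = 0.0875) and in double null relative to FIH null cells without FIH null replicate 1 or 2 or double null replicate 1 or 2 (adjusted p from 0.0704 to 0.168). Processing choices ended at least 1 call of Ccne1 under no variance trend, no _s_at or _x_at probe sets, no filter on low signals or quantile normalization.

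The G1 kinases Cdk4 and Cdk6 are close relatives that phosphorylate Rb, and they did not change alike. Cdk6 signals were 9757 and 11875 in wild type, 9577 and 10939.5 in FIH null, 11273 and 10614 in VHL null and 5452 and 4847 in double null cells. Both double null arrays lay below the other 6, which overlapped. Cdk6 fell by 1.06 (SE 0.1, adjusted p = 1.03e-05) against wild type, fell by 1.09 (SE 0.1, adjusted p = 1.27e-05) against VHL null and fell by 0.99 (SE 0.1, adjusted p = 1.49e-05) against FIH null cells, and these 3 calls held under all 20 alternatives. In VHL null against wild type cells its difference was 0.02 (adjusted p = 0.869), and in FIH null cells -0.07 (adjusted p = 0.726). The second tested probe set gave -0.86 in double null against wild type cells. Cdk4 signals were 43924 and 38948 in wild type, 41998 and 38568 in FIH null, 41694 and 41172 in VHL null and 41634 and 35816 in double null cells, and all groups overlapped. Its differences ran from -0.10 to 0.00 in the 3 comparisons with wild type, none past the threshold, with a 95% interval from -0.28 to 0.08 in double null cells.

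**Figure D4:**
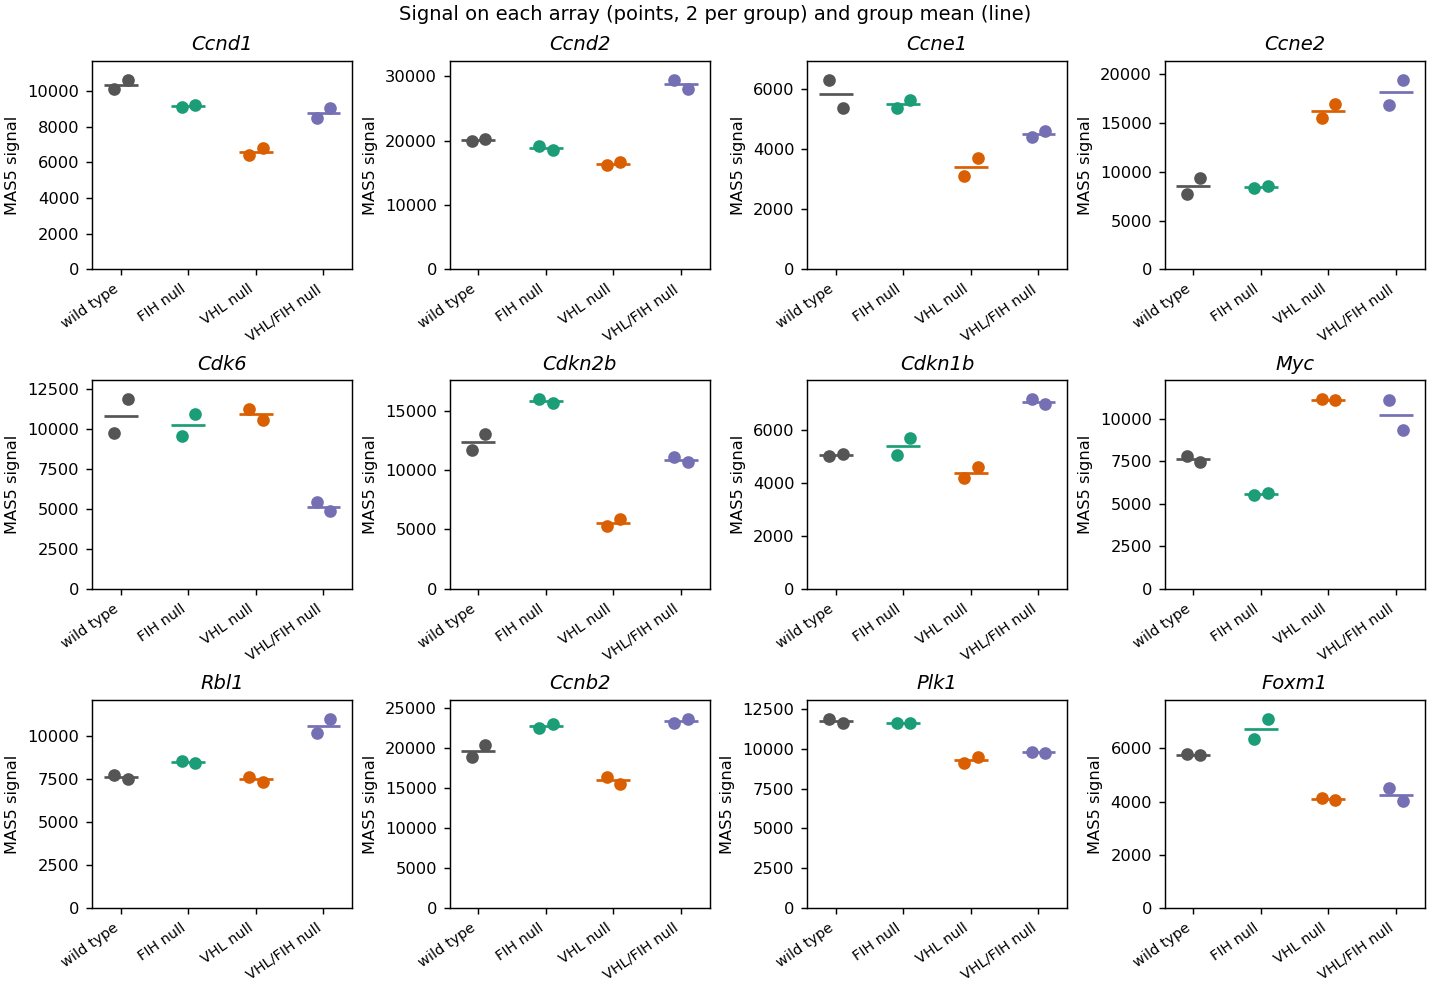
Points are MAS5 signals of single arrays and lines group means for 12 members, on linear axes that start at 0. Cdk6 is low only on the double null arrays, Ccne2 is high on the VHL null and double null arrays, and Cdkn2b is lowest on the VHL null arrays.

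The inhibitors of these kinases were next. Cdkn2b, which encodes p15 and blocks Cdk4 and Cdk6, gave 11680.2 and 13016 in wild type, 15934 and 15662 in FIH null, 5249.6 and 5888 in VHL null and 11049.5 and 10637 in double null cells. The order of the groups was FIH null, wild type, double null and VHL null, with no overlap between neighbours. It fell by 1.15 (SE 0.074, adjusted p = 8.87e-07) in VHL null cells, rose by 0.96 (SE 0.074, adjusted p = 3.07e-06) from VHL null to double null cells, and rose by 0.36 (SE 0.074, adjusted p = 0.0143) in FIH null cells, a rise that with scaling to hybridization controls was 0.10 (adjusted p = 0.301). The double null difference from wild type was -0.18 (adjusted p = 0.0643). Cdkn1b, which encodes p27 and blocks cyclin E with Cdk2, gave 5022 and 5085 in wild type, 5050.1 and 5721 in FIH null, 4189 and 4594 in VHL null and 7164 and 6973 in double null cells. The double null arrays lay above all others. Cdkn1b rose by 0.69 (SE 0.079, adjusted p = 6.27e-05) against VHL null cells and rose by 0.48 (SE 0.079, adjusted p = 0.000578) against wild type, where scaling to hybridization controls turned it to -0.04. Cdkn2c, which encodes p18, gave 14626 and 13218 in wild type, 14508 and 14187 in FIH null, 14391 and 13740.5 in VHL null and 14481 and 13881 in double null cells, with overlapping groups and a difference of 0.02 (adjusted p = 0.856) in VHL null against wild type cells (95% interval from -0.12 to 0.16). The call of Cdkn2b ended in FIH null against wild type cells without wild type replicate 1 or FIH null replicate 1 or 2 (adjusted p from 0.0795 to 0.124). At least 1 call also ended for Cdkn2b under no variance trend.

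Of the Rb family, Rbl1, which encodes p107 and is itself an E2F target, had the largest change. Its signals were 7747 and 7497 in wild type, 8577 and 8474 in FIH null, 7661 and 7371 in VHL null and 10218 and 11031 in double null cells, highest in double null cells. Rbl1 rose by 0.50 (SE 0.063, adjusted p = 0.000124) from VHL null to double null cells and rose by 0.48 (SE 0.063, adjusted p = 0.000128) against wild type, which read -0.04 once scaled to hybridization controls. Rb1 signals were 3969 and 4596 in wild type, 4114 and 4512 in FIH null, 4773 and 4714 in VHL null and 5191 and 5749 in double null cells. Both double null arrays lay above the rest. Rb1 rose by 0.35 (SE 0.09, adjusted p = 0.0084) in double null against wild type cells and read -0.17 with scaling to hybridization controls. Rbl2, which encodes p130, had no call in any comparison, with differences from -0.17 to 0.12. Among E2F factors, the activator gene E2f1 gave 4108 and 3445 in wild type, 4392 and 4594 in FIH null, 3240.0 and 2857 in VHL null and 4465 and 3639 in double null cells. Only its VHL null arrays lay wholly below the wild type ones. It rose by 0.40 (adjusted p = 0.0175) from VHL null to double null cells, a call that ended at 0.26 (adjusted p = 0.0989) when scaled to hybridization controls. E2f3, another activator gene, gave 3990.0 and 3967 in wild type, 4074 and 3958 in FIH null, 3519.7 and 3444 in VHL null and 3234 and 3459 in double null cells. Its VHL null and double null arrays overlapped below the other groups. It fell by 0.25 (adjusted p = 0.0189) in double null against wild type cells. The second E2f3 probe set, dimmer, gave -1.06 there. E2f8, a repressor of E2F targets, had no call, with differences from -0.21 to 0.18 between pairs of groups. The calls of Rb1 ended in double null against wild type cells without wild type replicate 1 or double null replicate 2 (adjusted p = 0.0838 and 0.0615) and in double null relative to FIH null cells without FIH null replicate 1 or double null replicate 2 (adjusted p = 0.0836 and 0.0671). The call of E2f1 ended in double null against VHL null cells without VHL null replicate 2 or double null replicate 1 (adjusted p = 0.128 and 0.135). The calls of E2f3 ended in double null against wild type cells without wild type replicate 1 or 2 or double null replicate 1 (adjusted p from 0.0655 to 0.0856) and in double null relative to FIH null cells without FIH null replicate 1 or double null replicate 1 (adjusted p = 0.0865 and 0.0645). Processing choices ended at least 1 call of E2f1 under no variance trend; E2f3 under quantile normalization or median centring.

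Myc, a growth regulator that drives G1 progression, gave 7779.7 and 7437 in wild type, 5508 and 5622 in FIH null, 11129 and 11098 in VHL null and 11106 and 9307 in double null cells. FIH null arrays were lowest and the 4 arrays without VHL highest. It fell by 0.45 (SE 0.08, adjusted p = 0.00615) in FIH null cells and rose by 0.55 (SE 0.08, adjusted p = 0.000289) in VHL null cells. Against FIH null cells Myc rose by 0.87 (SE 0.08, adjusted p = 7.31e-06) in double null cells, a call that held under all 20 alternatives. Against wild type it rose by 0.42 (SE 0.08, adjusted p = 0.00157) in double null cells and turned to -0.10 with scaling to hybridization controls, and the VHL null rise was 0.17 with that scaling (adjusted p = 0.078). The call of Myc ended in FIH null against wild type cells without wild type replicate 1 or FIH null replicate 1 (adjusted p = 0.0548 and 0.0554). At least 1 call also ended for Myc under no variance trend.

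S phase members had small differences from wild type. In FIH null cells 0 of 14 passed (6.55% of all genes), with differences from -0.09 to 0.23. In VHL null cells 3 rose and 1 fell (43.8% of all genes passed), and in double null cells 3 and 2 (41.4% of all genes), with scaling to hybridization controls turning all of these rises below 0. The 6 Mcm genes encode the replicative helicase. Mcm2 signals were 23443 and 24387 in wild type, 25800.0 and 25225 in FIH null, 20584 and 20307 in VHL null and 21361 and 20229 in double null cells. The arrays without VHL lay below all others. Mcm2 fell by 0.23 (adjusted p = 0.00646) in VHL null and fell by 0.20 (adjusted p = 0.0122) in double null cells. Mcm7 signals were 50807 and 49889 in wild type, 52651 and 49113 in FIH null, 62630.0 and 59871 in VHL null and 54615 and 47132 in double null cells, and both VHL null arrays were above all others. It rose by 0.28 (SE 0.072, adjusted p = 0.00847) in VHL null cells, where scaling to hybridization controls gave -0.10, and fell by 0.27 (SE 0.072, adjusted p = 0.0122) from VHL null to double null cells. Its 4 probe sets gave -0.27, -0.42, -0.44 and -0.47 in that last comparison. Mcm3, Mcm4, Mcm5 and Mcm6 had no call against wild type, with differences from -0.11 to 0.23. Mcm3 signals were 34407 and 31979 in wild type, 36865 and 36831 in FIH null, 30739 and 31490.3 in VHL null and 30920.5 and 30578 in double null cells, and Mcm6 signals were 37068 and 36951 in wild type, 43872 and 42928 in FIH null, 33579 and 38819 in VHL null and 34924 and 35645 in double null cells. Both genes were highest on the FIH null arrays. From FIH null to double null cells Mcm2 fell by 0.29, Mcm3 by 0.26 and Mcm6 by 0.30 (adjusted p = 0.00113, 0.00255 and 0.00381). The second Mcm6 probe set gave 0.18 in that comparison.

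Nucleotide supply and priming genes gave the remaining S phase calls. Rrm2, the regulated subunit of ribonucleotide reductase, gave 47869 and 45549 in wild type, 48079.8 and 46226 in FIH null, 48596 and 48542 in VHL null and 60976 and 58213 in double null cells. Double null arrays lay above all others. It rose by 0.29 (SE 0.055, adjusted p = 0.00165) from VHL null to double null cells, and against wild type it rose by 0.35 (SE 0.055, adjusted p = 0.000427), which turned to -0.17 (adjusted p = 0.0112) with scaling to hybridization controls. Its partner subunit gene Rrm1 had no call, with 0.03 in VHL null and 0.12 in double null against wild type cells. Pcna, the sliding clamp of the polymerases, gave 67030.0 and 65001 in wild type, 75699 and 71490.1 in FIH null, 77831 and 74055 in VHL null and 83076 and 72366 in double null cells. Wild type arrays were lowest and the other groups overlapped. Pcna rose by 0.20 (adjusted p = 0.0368) in VHL null cells and rose by 0.23 (adjusted p = 0.0206) in double null cells, values that turned to -0.18 and -0.29 with scaling to hybridization controls, as the first did to -0.01 with quantile normalization. Prim1 of the primase gave 26904 and 28039 in wild type, 26856 and 26092 in FIH null, 31941 and 29712 in VHL null and 31502 and 32072 in double null cells, with all arrays without VHL above the rest. It rose by 0.17 (adjusted p = 0.0347) and rose by 0.21 (adjusted p = 0.0118) in the same comparisons, which likewise turned to -0.21 and -0.31. Pola1, the polymerase that works with it, gave 7966 and 8027 in wild type, 8817 and 8819 in FIH null, 7564 and 7413 in VHL null and 7302 and 7339.8 in double null cells, highest on the FIH null arrays. It fell by 0.27 (adjusted p = 0.00282) in double null against FIH null cells. Tyms, which makes thymidylate, gave the lowest signals of any member, 1168 and 1407 in wild type, 1382 and 1300.4 in FIH null, 1029 and 1180.0 in VHL null and 954 and 996 in double null cells. It fell by 0.39 (adjusted p = 0.044) in double null against wild type cells and fell by 0.45 (adjusted p = 0.0208) against FIH null cells. The licensing factor genes Cdc6 and Cdt1 had no call in any comparison, with signals of 10549.8 to 12674 and 27050.2 to 29822 over all arrays. The calls of Pcna ended in VHL null against wild type cells without wild type replicate 1 or 2, FIH null replicate 1 or 2 or VHL null replicate 1 or 2 (adjusted p from 0.0512 to 0.194) and in double null against wild type cells without wild type replicate 1 or 2 or double null replicate 1 (adjusted p from 0.062 to 0.11). The calls of Prim1 ended in VHL null against wild type cells without wild type replicate 1 or 2, FIH null replicate 1 or 2 or VHL null replicate 1 (adjusted p from 0.0562 to 0.228) and in double null against wild type cells without wild type replicate 1 (adjusted p = 0.087). The calls of Mcm2 ended in VHL null against wild type cells without wild type replicate 2 (adjusted p = 0.0511) and in double null against wild type cells without wild type replicate 2 or double null replicate 2 (adjusted p = 0.0825 and 0.0537). The calls of Mcm7 ended in VHL null against wild type cells without wild type replicate 2 or VHL null replicate 1 (adjusted p = 0.0503 and 0.0689) and in double null against VHL null cells without VHL null replicate 1 or double null replicate 2 (adjusted p = 0.0916 and 0.0654). The calls of Tyms ended in double null against wild type cells without wild type replicate 2, FIH null replicate 1 or 2 or double null replicate 1 or 2 (adjusted p from 0.0605 to 0.271) and in double null relative to FIH null cells without FIH null replicate 1 or 2 or double null replicate 1 (adjusted p from 0.0581 to 0.111). Processing choices ended at least 1 call of Pcna under no filter on low signals, quantile normalization, no variance trend or a fit to the compared groups, Prim1 under no filter on low signals, quantile normalization or no variance trend, Tyms under no filter on low signals, quantile normalization, a fit to the compared groups, median centring or the mean of probe sets, Mcm7 under quantile normalization or no variance trend, Mcm2 under median centring or the mean of probe sets, and Mcm6 under the mean of probe sets.

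Mitotic genes split by gene. In VHL null cells 1 of 12 rose and 5 fell, in double null cells 4 rose and 3 fell against wild type, and from VHL null to double null cells 5 rose and 0 fell. Their shares called were 50%, 58.3% and 41.7%, beside 43.8%, 41.4% and 37.7% of all genes. Foxm1, the factor that drives mitotic genes, gave 5785 and 5744 in wild type, 6359 and 7115 in FIH null, 4142 and 4062 in VHL null and 4526 and 4010.5 in double null cells. All 4 arrays without VHL lay below all 4 with it. Foxm1 fell by 0.49 (SE 0.081, adjusted p = 0.000674) in VHL null and fell by 0.43 (SE 0.081, adjusted p = 0.00138) in double null cells, where its other 2 tested probe sets gave -0.10 and -0.13 (adjusted p = 0.355 and 0.403). Plk1, the polo kinase of mitotic entry, gave 11891 and 11644 in wild type, 11618 and 11624 in FIH null, 9105 and 9488 in VHL null and 9809 and 9743 in double null cells with the same separation, and fell by 0.34 (SE 0.056, adjusted p = 0.000637) in VHL null and fell by 0.27 (SE 0.056, adjusted p = 0.00279) in double null cells. Bub1 and Bub1b encode kinases of the spindle checkpoint. Bub1 gave 17331 and 16811 in wild type, 18772 and 18739 in FIH null, 21509.8 and 22078 in VHL null and 21321 and 23430.2 in double null cells and Bub1b gave 12940.4 and 13290.5 in wild type, 13109.9 and 11467 in FIH null, 9641 and 10023 in VHL null and 10358 and 9987 in double null cells. Without VHL the first was higher and the second lower. Bub1 rose by 0.35 (SE 0.059, adjusted p = 0.000756) in VHL null cells, while Bub1b fell by 0.41 (SE 0.07, adjusted p = 0.000738). Bub1 turned to -0.03 with scaling to hybridization controls, and its dimmer second probe set gave -0.25. In double null against wild type cells Bub1 rose by 0.39 (adjusted p = 0.000362), -0.14 with that scaling, and Bub1b fell by 0.37 (adjusted p = 0.00158).

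A second set of mitotic genes was lower in VHL null than in double null cells. Ccnb2, a B cyclin that activates Cdk1, gave 18860.3 and 20314 in wild type, 22420.3 and 22982 in FIH null, 16368 and 15504 in VHL null and 23104 and 23613 in double null cells. The order of the groups was VHL null, wild type, FIH null and double null, with no overlap. It fell by 0.30 (SE 0.059, adjusted p = 0.00197) in VHL null cells and rose by 0.55 (SE 0.059, adjusted p = 3.57e-05) from VHL null to double null cells. Aurkb, the kinase of the chromosomal passenger complex, gave 11674 and 11673 in wild type, 13912 and 13517 in FIH null, 10154 and 10469.6 in VHL null and 13324 and 12900.1 in double null cells. The VHL null arrays were lowest and the FIH null arrays highest. Aurkb fell by 0.18 (adjusted p = 0.0223) in VHL null cells, rose by 0.35 (adjusted p = 0.000622) from VHL null to double null cells, and rose by 0.23 (adjusted p = 0.0301) in FIH null cells, where it read -0.03 with scaling to hybridization controls. Against wild type Ccnb2 rose by 0.26 (adjusted p = 0.00492) and Aurkb rose by 0.17 (adjusted p = 0.0313) in double null cells, values of -0.27 and -0.36 with that scaling. From VHL null to double null cells the spindle kinase gene Aurka rose by 0.22 (adjusted p = 0.0103), the proliferation marker gene Mki67 rose by 0.23 (adjusted p = 0.0109) and the topoisomerase gene Top2a rose by 0.22 (adjusted p = 0.0112), none of which passed once scaled to hybridization controls (adjusted p = 0.439, 0.386 and 0.379). Aurka signals were 17475 and 17577 in wild type, 19299 and 19366 in FIH null, 16971 and 15591 in VHL null and 18784 and 19212 in double null cells, and Top2a signals were 45049 and 41949.7 in wild type, 48732 and 46846 in FIH null, 39979 and 39024 in VHL null and 46455 and 45328 in double null cells. Both genes were lowest on the VHL null arrays. Mki67 signals were 19116 and 18242 in wild type, 20226 and 18995 in FIH null, 18225 and 17307 in VHL null and 20416 and 21228 in double null cells, with the double null arrays highest, and against wild type it had no call in VHL null (-0.07) or double null cells (0.16). Cdk1, the mitotic kinase, gave 40280.0 and 40498 in wild type, 43299.9 and 41427 in FIH null, 44622 and 43359 in VHL null and 48411 and 44652 in double null cells, lowest in wild type. It rose by 0.20 (adjusted p = 0.0153) in double null against wild type cells and turned to -0.32 with scaling to hybridization controls. Ccna2, the S and G2 cyclin, and Cdc20, which activates the anaphase-promoting complex, had no call in any comparison, with signals of 28157 to 35024 and 48584 to 58386 over all arrays. The call of Ccnb2 ended in double null against wild type cells without wild type replicate 1 (adjusted p = 0.0542). The calls of Aurkb ended in FIH null against wild type cells without wild type replicate 1 or 2 or FIH null replicate 1 or 2 (adjusted p from 0.12 to 0.217), in VHL null against wild type cells without wild type replicate 1 or 2 or VHL null replicate 1 (adjusted p from 0.0762 to 0.11) and in double null against wild type cells without wild type replicate 1 or 2, FIH null replicate 1 or 2 or double null replicate 1 (adjusted p from 0.053 to 0.105). The call of Bub1b ended in double null relative to FIH null cells without FIH null replicate 1 (adjusted p = 0.113). The call of Mki67 ended in double null against VHL null cells without VHL null replicate 2 (adjusted p = 0.0817). The call of Top2a ended in double null against VHL null cells without VHL null replicate 2 (adjusted p = 0.0707). The call of Aurka ended in double null against VHL null cells without VHL null replicate 2 (adjusted p = 0.0927). The call of Cdk1 ended in double null against wild type cells without wild type replicate 1 or 2 or double null replicate 1 (adjusted p from 0.0625 to 0.0751). At least 1 call also ended for Aurkb under no variance trend, the mean of probe sets, median centring or a fit to the compared groups; Cdk1 under no variance trend or quantile normalization; Bub1, Bub1b and Top2a under the mean of probe sets.

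VHL loss where FIH was also missing was read from double null against FIH null cells, which came from separate floxed lines. That comparison shares no array with VHL null against wild type. The rises were 0.60 for Ccnd2, 1.10 for Ccne2, 0.39 for Cdkn1b, 0.34 for Rb1, 0.32 for Rbl1, 0.87 for Myc, 0.34 for Rrm2, 0.26 for Prim1 and 0.25 for Bub1. With scaling to hybridization controls Ccnd2, Ccne2 and Myc passed as rises, while Prim1 read 0.00 and Bub1 -0.01, and Cdkn1b, Rb1, Rbl1 and Rrm2 read 0.13, 0.08, 0.05 and 0.07 without passing. The falls were -0.42 for Ccnd3, -0.29 for Ccne1, -0.99 for Cdk6, -0.54 for Cdkn2b, -0.26 for E2f3, -0.29 for Mcm2, -0.26 for Mcm3, -0.30 for Mcm6, -0.45 for Tyms, -0.27 for Pola1, -0.25 for Plk1, -0.27 for Bub1b and -0.66 for Foxm1, and all of them passed with that scaling too. The scaling lowers every gene in double null against FIH null cells, so it was no test of these falls. Values for the same genes in VHL null against wild type cells included 0.93 for Ccne2, 0.55 for Myc, -0.49 for Foxm1 and 0.02 for Cdk6. Ccnd2 went the other way there, at -0.29. Prim1 and Bub1 also rose there, and Ccnd3, Ccne1, Cdkn2b, Mcm2, Plk1 and Bub1b also fell. Cdkn1b, Rb1, Rbl1, Rrm2, Cdk6, E2f3, Mcm3, Mcm6, Tyms and Pola1 had no call in VHL null against wild type cells.

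Whether FIH loss acted differently with and without VHL was tested as the interaction, the FIH effect in VHL null cells (double null minus VHL null) less that in cells with VHL (FIH null minus wild type). It passed for 10 of 44 members, 9 above 0 and 1 below, where 21.9% of all tested genes passed (13.4% above 0 and 8.47% below). Of the 10, 8 were G1 members, and the others were Rrm2 and Ccnb2. With median centring 4 were above 0 and 4 below, where 22.4% of all tested genes passed, 1047 above 0 and 1544 below. For Ccnd2 FIH loss gave -0.09 with VHL and 0.81 without it (difference 0.89, SE 0.077, adjusted p = 2.15e-05). For Ccnd1 these were -0.18 and 0.41 (difference 0.59, adjusted p = 0.00112), and for Cdk6 -0.07 and -1.09 (difference -1.01, adjusted p = 0.000588). The inhibitor gene Cdkn1b gave 0.09 and 0.69 (difference 0.60, adjusted p = 0.00338) and Cdkn2b 0.36 and 0.96 (difference 0.60, adjusted p = 0.00212). The D cyclin genes Ccnd1 and Ccnd2 and the inhibitor genes Cdkn1b and Cdkn2b had interactions of the same sign, and Cdk6 of the other. In all of these interactions genotype and line of origin cannot be told apart. The interaction of Ccne1 lost its call without wild type replicate 1, FIH null replicate 1 or 2, VHL null replicate 1 or double null replicate 2 (adjusted p from 0.0618 to 0.118). The interaction of Cdk2 lost its call without wild type replicate 2, FIH null replicate 1 or 2, VHL null replicate 1 or 2 or double null replicate 1 (adjusted p from 0.0565 to 0.0886). The interaction of Rbl1 lost its call without wild type replicate 1, FIH null replicate 1 or 2, VHL null replicate 2 or double null replicate 2 (adjusted p from 0.0506 to 0.0707). The interaction of Rrm2 lost its call without wild type replicate 1, FIH null replicate 1 or 2 or VHL null replicate 1 or 2 (adjusted p from 0.0572 to 0.105). The interaction of Ccnb2 lost its call without wild type replicate 2, FIH null replicate 1 or VHL null replicate 2 (adjusted p from 0.057 to 0.0628). The interaction call also ended for Ccne1 under no filter on low signals, quantile normalization, median centring, no variance trend, the mean of probe sets or no _s_at or _x_at probe sets, Rrm2 under no filter on low signals, median centring or no variance trend, Cdk2 and Ccnb2 under median centring or no variance trend and Rbl1 under median centring, no variance trend or the mean of probe sets.

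**Figure D5:**
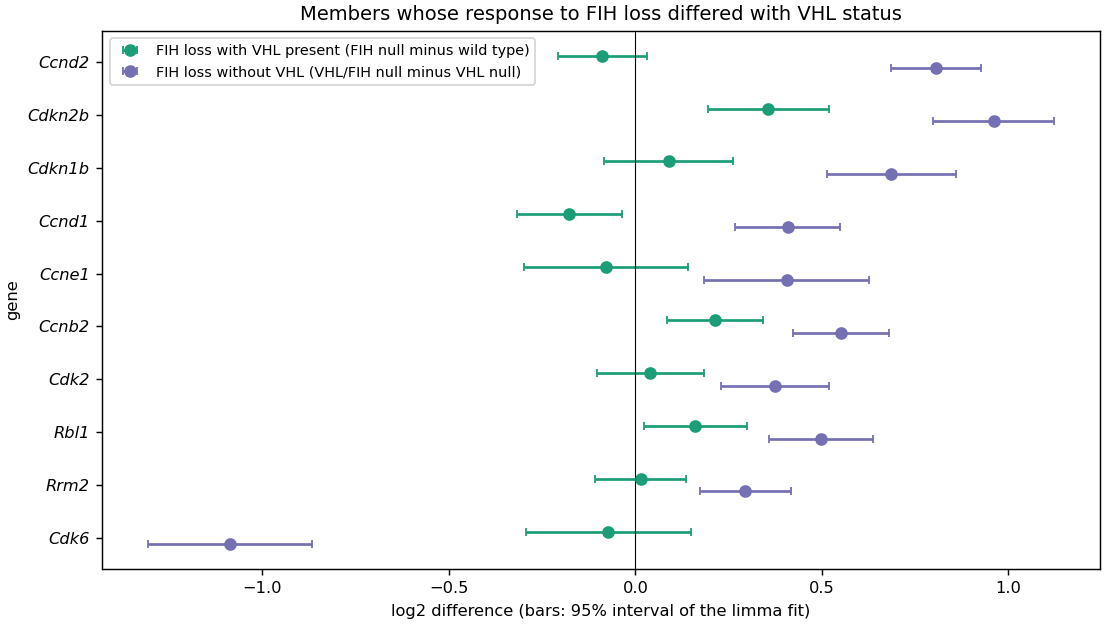
Points are log2 differences on loss of FIH with VHL present and without VHL for the 10 members whose interaction passed, with 95% intervals of the limma fit as bars. The effect without VHL is above that with VHL for 9 of them and below it for Cdk6.

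The 44 genes were also read probe set by probe set, in a fit over 21688 tested probe sets of single genes that was added after the data were seen. Of 107 member probe sets 90 were tested, and 29 genes had more than 1. In VHL null against wild type cells 13 probe sets rose and 25 fell, and in double null 25 and 18, where 37% and 35.7% of all 21688 passed. Of 11 genes with several probe sets and a call in VHL null cells, 8 had the same sign in all of them, and Ccnd2, Ccnd3 and Bub1 did not. In double null against VHL null cells 9 of 10 did, with Top2a the exception, and in double null against wild type cells 12 of 15, with Bub1, Ccnd3 and Rrm2 differing. Between double null and FIH null cells 9 of 15 did, and Bub1, Ccnd3, Mcm2, Mcm3, Mcm6 and Rrm2 did not. There the discordant probe sets of Mcm2, Mcm3 and Rrm2 gave 0.02, 0.18 and -0.03, none past the threshold. Fewer genes had a second probe set called in the same direction. Against wild type these were 0 of 1 in FIH null, 7 of 11 in VHL null and 8 of 15 in double null cells. From double null to VHL null cells they were 6 of 10, and to FIH null cells 10 of 15. No gene had probe sets called in opposite directions against wild type or between double null and VHL null cells, while between double null and FIH null cells 3 did, namely Mcm5, Mcm6 and Bub1. Probe sets whose names end in _s_at or _x_at can bind transcripts of more than 1 gene, and such probe sets read Ccne1, Cdk4, Mcm3, Mcm5, Mcm7, Rrm2, Aurkb and Cdc20.

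Other genes of the same machinery were taken from a list of 76 that holds further inhibitors, E2F factors, origin and fork proteins and mitotic genes, of which 73 were tested. Against wild type 2 rose and 3 fell in cells without FIH, 14 rose and 16 fell in cells without VHL and 18 rose and 12 fell in cells without both, with medians of 0.03, 0.02 and 0.08. From VHL null to double null cells 24 rose and 12 fell, and from FIH null to double null cells 18 rose and 21 fell. In the order given, 6.85%, 41.1%, 41.1%, 49.3% and 53.4% of the list passed, beside 6.55%, 43.8%, 41.4%, 37.7% and 45.5% of all genes. The smallest adjusted p in double null against wild type cells was that of Cdkn1c, which encodes the inhibitor p57. It gave 8592 and 8913 in wild type, 6673 and 6653 in FIH null, 8914 and 7922 in VHL null and 1608 and 1223 in double null cells and fell by 2.63 (SE 0.111, adjusted p = 1.97e-08). Cdkn1a, which encodes the inhibitor p21, gave 6391 and 5027 in wild type, 5303 and 5619 in FIH null, 9183 and 8742 in VHL null and 25422 and 22083 in double null cells. It rose by 2.06 (SE 0.104, adjusted p = 7.12e-08) there and rose by 1.40 (adjusted p = 2.42e-06) from VHL null to double null cells. Of the atypical cyclin genes, Ccng2, linked to cell cycle arrest, rose by 1.08 (adjusted p = 8.34e-07) in VHL null and rose by 1.36 (adjusted p = 7.05e-08) in double null cells, and the p53 target gene Ccng1 rose by 0.95 (adjusted p = 2.42e-07) from VHL null to double null cells. In VHL null cells the mitotic kinase gene Nek2 fell by 0.48 (adjusted p = 5.03e-05) and the repressor gene E2f4 fell by 0.69 (adjusted p = 8.74e-05). In FIH null cells the securin gene Pttg1 fell by 0.27 (adjusted p = 0.0143), Cables1 fell by 0.66 (adjusted p = 0.0299) and the phosphatase gene Cdc25b rose by 0.37 (adjusted p = 0.0329).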

How the data were processed

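Affymetrix mouse arrays of 8 samples were analysed, 2 for each of 4 genotypes named by the labels. The authors deposited 1 intensity per probe set, on a linear scale, and the submitters' processing notes name MAS5 as the tool. Its version is not given in the sources used here. Each array had a trimmed mean (2% off each end) of 2500.01, and no further scaling was applied. Of 45101 probe sets 64 were controls. The platform annotation, with symbols updated through Entrez numbers, gave 34945 probe sets a single gene, 932 several and 9160 none or no entry.
log2(signal + 16) was tested. A probe set entered if it exceeded 291.1, the median signal, on 2 or more arrays, and a gene was read by its entering probe set with the highest mean. limma 3.58.1 in R 4.3.3 (lmFit, eBayes with variance trend, prior degrees of freedom 7.04, residual 4) was fitted to all 8 arrays, two-sided, with Benjamini-Hochberg adjustment over 11564 genes. The number of arrays limits precision. The script was tested on simulated data. Members and lists were chosen with earlier results of these data known. Every member could be named, with its value on each array where it passed in any comparison. Outside them, Vhl, Hif1an and up to 3 genes of the wider list per comparison were named. Alternatives were pseudocounts of 1 and 64, no filter or one at the 75th percentile, 3 other scalings, no variance trend, only the compared groups, the mean of probe sets, leaving out _s_at and _x_at probe sets, the replicate number as a block, and leaving out each array.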

Additional observations from a re-analysis of the deposited data

Results flagged for a closer look

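The following were singled out because the effect of FIH loss differed between cells with and without VHL, by the limma test of the interaction. The difference between both effects on the log2 scale was, for each gene, Ccnd1 0.59 (adjusted p = 0.00112), Ccnd2 0.89 (adjusted p = 2.15e-05), Ccne1 0.48 (adjusted p = 0.0317), Cdk2 0.34 (adjusted p = 0.0241), Cdk6 -1.01 (adjusted p = 0.000588), Cdkn1b 0.60 (adjusted p = 0.00338), Cdkn2b 0.60 (adjusted p = 0.00212), Rbl1 0.34 (adjusted p = 0.02), Rrm2 0.28 (adjusted p = 0.0247) and Ccnb2 0.34 (adjusted p = 0.0141). Among them Ccnd1, Ccnd2, Cdk6, Cdkn1b and Cdkn2b passed under each of the alternatives that could be run for the interaction. Outliers within a group could not be sought with 2 arrays each.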

How the results depend on the processing

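Of 92 calls on single members, 37 held under every alternative that gave a value and 56 held without each array in turn. Pseudocounts of 1 and 64 and the replicate block ended none, scaling to hybridization controls 11, dropping the variance trend 20, the mean of probe sets 14, median centring 12, quantile normalization 9, no filter 6, a fit to the compared groups 3 and leaving out _s_at and _x_at probe sets 2, besides those that changed sign. With median centring, members called were 14 FIH null against wild type higher, 5 double null against wild type lower, 4 interaction higher and 4 interaction lower. With scaling to hybridization controls, members called were 0 FIH null against wild type higher, 26 FIH null against wild type lower, 1 VHL null against wild type higher, 39 VHL null against wild type lower, 1 double null against wild type higher, 37 double null against wild type lower, 9 double null against VHL null higher, 8 double null against VHL null lower, 3 double null relative to FIH null higher and 31 double null relative to FIH null lower. Without a variance trend, members called were 0 FIH null against wild type higher, 0 FIH null against wild type lower, 3 VHL null against wild type higher, 1 double null against VHL null lower and 4 interaction higher. Without _s_at and _x_at probe sets, members called were 1 FIH null against wild type higher and 2 interaction lower. With the replicate number as a block, members called were 4 FIH null against wild type higher and 3 interaction lower. With quantile normalization, members called were 3 VHL null against wild type higher. With the mean of probe sets, members called were 3 interaction lower. Without each array in turn, counts ran from 0 to 3 FIH null against wild type higher, from 0 to 1 FIH null against wild type lower, from 3 to 7 VHL null against wild type higher, from 7 to 14 double null against wild type higher, from 5 to 10 double null against wild type lower, from 1 to 3 double null against VHL null lower, from 4 to 8 interaction higher and from 1 to 2 interaction lower. Wild type replicate 1, left out, gave 0 FIH null higher, 0 lower and 7 double null higher, wild type replicate 2 gave 3 VHL null higher and 5 double null lower, and FIH null replicate 1 gave 4 interactions higher. With scaling to hybridization controls, these called differences changed sign: Ccnd2 (-0.007), Cdkn1b (-0.04), Rb1 (-0.168), Rbl1 (-0.045), Myc (-0.105), Pcna (-0.291), Rrm2 (-0.172), Prim1 (-0.313), Ccnb2 (-0.269), Cdk1 (-0.32), Aurkb (-0.356) and Bub1 (-0.135) in double null against wild type, Mcm7 (-0.096), Pcna (-0.176), Prim1 (-0.213) and Bub1 (-0.026) in VHL null against wild type, Prim1 (0) and Bub1 (-0.011) in double null relative to FIH null and Aurkb (-0.027) in FIH null against wild type. With the mean of probe sets, these called differences changed sign: Ccnd3 (0.237) in double null against wild type and Ccnd3 (0.152) and Bub1 (-0.16) in double null relative to FIH null. Without _s_at and _x_at probe sets, these called differences changed sign: Ccne1 (-0.01) in interaction. With quantile normalization, these called differences changed sign: Pcna (-0.01) in VHL null against wild type. Over all tested genes, same-numbered arrays hardly deviated together (r from 0.00869 to 0.0393 over 6 pairs of groups). Single members could still do so. Pcna and Cdk4 read higher on replicate 1 than on replicate 2 in all 4 groups, and Ccnd1 and Ccne2 lower. The replicate block added 7 calls higher and 6 lower to the members. Whether the numbers pair arrays is therefore not settled. No cause of the changes in calls and signs was tested. The interaction needs all 4 groups, so a fit to the compared groups alone was not run for it. Fits without 1 array leave a group with 1, assumed to vary like the others.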
